A study of Sus scrofa with 9 samples.

Results

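Polyadenylated transcripts of mature pig oocytes were ranked by abundance. The oocytes were never heated and had reached the second meiotic metaphase (MII), where the egg halts until sperm entry. The members are the 3 control libraries of a series of 9, chosen by their sample titles, and the 6 libraries of heated oocytes (heat stress with or without L-Asp) were not used. Wild-type oocytes were taken with a compact cumulus cell layer and matured in TCM-199 medium with 10% porcine follicular fluid, cysteine, gonadotropins and epidermal growth factor at 38.5 °C for 44 to 48 h. The submitters' design names 25 oocytes per group, and the sources used here do not say how these were shared among the 3 libraries. Although 1 label field calls the material a cell line, all other fields call it oocyte, and the libraries came from primary oocytes. First-strand cDNA was primed on the poly(A) tail and enlarged by PCR before it was broken into fragments for paired sequencing. Nothing in the preparation keeps the strand from which an RNA came.

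A growing oocyte transcribes and stores the mRNA that the egg and early embryo will use, and transcription is largely silent from the end of growth until the embryonic genome is activated. Many stored mRNAs are kept with short poly(A) tails. During maturation some gain a long tail and are translated, while others lose their tail and are degraded. MII arrest itself is held by cyclin B with its kinase, by the MOS kinase pathway and by inhibition of the anaphase-promoting complex, a ubiquitin ligase. Because the cDNA was primed on poly(A) tails, the amount of an mRNA and the length of its tail cannot be told apart in these values. Nor can the number of cells of a type and the RNA per cell, since each library is a bulk sample.

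The 3 control libraries held 54965064, 58361475 and 57825098 counts. They were nearly copies of each other. For each pair, the squared difference of scaled counts divided by the value expected from independent counts (index of dispersion, 1 for independent counts) had a median-based value between 5.19 and 5.22. Counts of 4 were listed for 604 genes of library 1, against 330 genes with 3 counts and 216 with 5, and counts of 8 were again in excess (357 genes, against 236 with 7 and 188 with 9). Fragments that each add 4 counts would give an index of 4, though counts of 3, 5 and 7 show that not every fragment added 4. The control pairs lay between 4.56 and 4.82 among genes with 100 to 300 counts over the pair. Among genes with at least 1000 counts they lay between 5.44 and 5.87. The 3 libraries therefore differed by little more than sampling noise and were counted as 1 sample: the mean is printed with each library's value or the range over the 3, and with no SD. Their agreement describes the measurement and not the spread between batches of oocytes.

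Of 23507 genes in the table, 15557 had a count in each of the 3 libraries and 3850 had none in any. A gene counted as detected at 1 or more FPKM (fragments per kilobase of transcript, scaled by library size, as the authors computed it) in each library, which 7762 genes (33.0%) reached. The detected genes had a median of 7.11 FPKM. Levels of at least 10 FPKM in each library were reached by 3113 genes, at least 100 by 460, at least 1000 by 44 and at least 10000 by 7. Those 7 genes held 33.5% of all FPKM, and the 44 held 59.3%. The agreement between libraries depended on level: the highest library exceeded the lowest by a median factor of 1.13 among genes at 1 to 10 FPKM and of 1.02 among the 44 above 1000 FPKM, where PPIA had the largest factor, 1.052.

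Few genes held most of the signal. The single most abundant gene took 12.6% of the summed FPKM, the first 10 genes 38.5%, the first 50 genes 60.3% and the first 100 genes 66.1%. The first 22 genes together reached 50% in each of the 3 libraries, whereas 1477 genes were needed for 90%. The concentration was lower in counts, which are not divided by transcript length. There the first 10 genes held 19.9% and 235 genes were needed for 50%. Among nuclear genes alone, 36 genes held 50% of the nuclear FPKM.

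**Figure D1:**
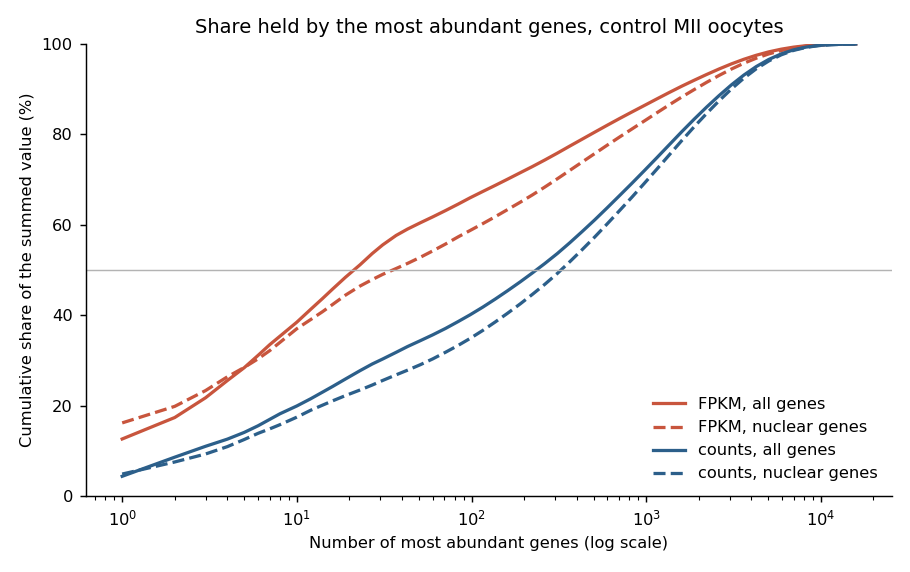
Cumulative share (%) of the summed mean FPKM or mean counts against the number of most abundant genes (log scale), for all genes (solid) and nuclear genes (dashed) of the control libraries. The FPKM curve of all genes passes 50% at 22 genes and the count curve at 235.

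The first place belonged to a nuclear gene without a symbol. ENSSSCG00000000296 (protein coding, chromosome 5, 19672068 to 19673217, minus strand, in coordinates of the deposited table, whose build the sources used here do not name) had 62871, 63204 and 63572 FPKM in libraries 1, 2 and 3, with a mean of 63216. Its only gene ontology (GO) term in the table is metal ion binding. It was 2.64 to 2.70 times as abundant as the next gene, COX1, on the FPKM scale. Its transcript length, derived from the ratio of counts to FPKM, was 330 bases, and by counts, with no division by length, it ranked 3 with 2.40% of the total. Adjacent genes were far lower, with GTSF1 at 32.5 FPKM, 10469 bases away, and NCKAP1L at 3.23 FPKM, 4658 bases away.

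Mitochondrial genes took the next 3 places, followed by a run of nuclear genes. The first 10 genes by FPKM were ENSSSCG00000000296, COX1, a mitochondrial tRNA gene, ATP6, UBB, ENSSSCG00000017032, BTG4, COX3, CKS1B and ID3. UBB encodes polyubiquitin, the precursor of ubiquitin, and had 14334, 14212 and 14310 FPKM. ENSSSCG00000017032, whose GO terms are chromosome segregation, sister chromatid cohesion and inhibition of cysteine endopeptidases, had 13675, 13533 and 13662 FPKM. The ranges of these 2 genes did not overlap, which describes the measurement and not other batches of oocytes. BTG4, an adaptor that brings the CCR4-NOT deadenylase to maternal mRNA, followed with 11800, 11920 and 11866 FPKM.

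CKS1B, a small subunit of cyclin-dependent kinase complexes, had 8129, 8152 and 8141 FPKM. ID3, an inhibitor of basic helix-loop-helix transcription factors, had 7348, 7501 and 7418 FPKM. ACCSL, named for its resemblance to the plant enzyme that makes the ethylene precursor, had 7079, 7076 and 7181 FPKM. DNMT1, the maintenance DNA methyltransferase, had 7082, 7039 and 7073 FPKM. This overlapped the range of ACCSL, so the order of these genes is not set even within the measurement. With a derived length of 5391 bases, DNMT1 was the first gene of all by counts (4.39% of the total, against 4.23% for COX1). The FPKM order thus has a short transcript at its head and the count order a long one, and 34 of the 50 most abundant nuclear genes were shared by both.

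**Figure D2:**
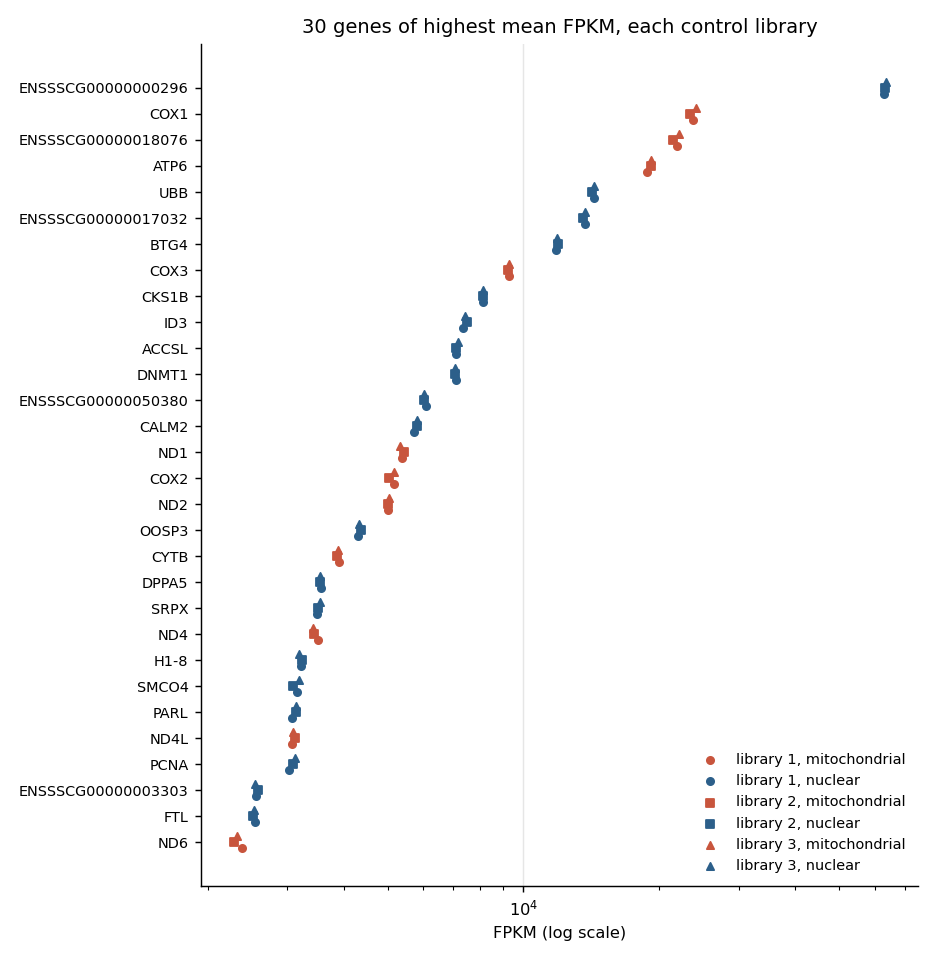
FPKM (log scale) of the 30 genes of highest mean FPKM in each control library (circles, squares and triangles for libraries 1, 2 and 3), with mitochondrial genes in red and nuclear genes in blue. The 3 symbols of a gene nearly coincide, and ENSSSCG00000000296 stands apart at 63216 FPKM.

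The 50 most abundant nuclear genes ranged down to 643.3 FPKM and held 52.7% of nuclear FPKM. In them the highest library exceeded the lowest by a factor of 1.052 at most. When each was given a role from its symbol, description and GO terms, 6 belonged to meiosis and cell division and together held 6.43% of nuclear FPKM. Ubiquitin and ubiquitin-like proteins had 4 genes (4.88%), with ENSSSCG00000003303, which has the GO term ubiquitin protein ligase activity, counted among them. Chromatin and DNA methylation had 5 (3.37%) and mitochondrial proteins of nuclear genes 4 (1.92%). Oocyte secreted proteins had 3 (1.81%), and maternal-effect and oocyte proteins 3 (1.58%). Another 3 genes with no symbol and no assigned role held 18.05%, of which ENSSSCG00000000296 alone gave 16.2%. The roles were assigned by hand after the order was known.

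The remaining named genes of the first 50 had varied roles. SRPX, a secreted protein with sushi repeats, had 3480, 3508 and 3541 FPKM. SMCO4, a small membrane protein, had 3155, 3087 and 3187 FPKM from a model of only 180 bases, and ranked 181 by counts. PARL, a protease of the inner mitochondrial membrane, had 3067, 3135 and 3129 FPKM. The ranges of SMCO4 and PARL overlapped. PCNA, the sliding clamp of DNA replication and repair, had 3030, 3086 and 3111 FPKM. TOMM7, a subunit of the pore for import into mitochondria, had 2000, 1970 and 1968 FPKM. DSTN, which severs actin filaments, had 1171 FPKM and COPRS, a cofactor of a histone arginine methyltransferase, 937. All of these differed by little between the libraries. UTP23, of ribosomal RNA processing, had 920 FPKM, and HENMT1, which methylates small RNAs of the germ line, had 785. ENSSSCG00000016982, with the GO terms cell cycle and centrosome, had 803.9 FPKM and EBPL, a relative of a sterol isomerase, 795.8. Just below this set were FANCL, a ubiquitin ligase of DNA repair, with 638.9 FPKM, BCL2L10, an inhibitor of cell death known from oocytes, with 594.5, and CHCHD2, a mitochondrial protein, with 591.0.

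The 6 genes taken as markers of the mature oocyte were all present at high level. UBB and BTG4 are given above. H1-8, the oocyte linker histone, had 3217, 3226 and 3188 FPKM. BMP15, a growth factor secreted by the oocyte and acting on the cumulus cells around it, had 1623, 1654 and 1615 FPKM. MOS, the kinase that starts the mitogen-activated protein kinase cascade of MII arrest, had 732, 710 and 706 FPKM. WEE2, the oocyte kinase that inhibits cyclin-dependent kinase, had 664, 679 and 682 FPKM. All 6 ranked within the first 62 genes, and together they held 6.47% of FPKM. UBB is not particular to oocytes. The 6 were chosen with earlier results of these data known, so their ranks are no independent support. Other oocyte markers, given below, were not all high. KPNA7, OOEP, ZP2, ZP3, ZP4 and GDF9 were above the median of detected genes, whereas NLRP5 was below it and DAZL was below detection.

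Genes of the cells that surround the oocyte were mostly at or near 0. Of 37 markers of cumulus and granulosa cells in the table, 7 were detected (18.9%, against 45.1% of all nuclear protein-coding genes), the median was 0.0304 FPKM and 10 had no count. The defining genes GATA6, LHCGR, PTX3, INHBA and AMH were among the 10 at 0, and CYP11A1, the first enzyme of steroid synthesis, had 0, 0 and 6 counts. Their summed level was 651.6, 664.0 and 672.7 FPKM in libraries 1, 2 and 3. Nearly all of it came from RGS2, a regulator of G protein signalling, with 595, 609 and 617 FPKM, followed by FST at 27.1 FPKM. Markers of blood and immune cells (0 of 8), theca and stroma (2 of 11) and endothelium (3 of 6) had no member at 10 FPKM. The part of other cells in the values of single genes was not tested.

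Most meiotic control genes were detected, and their levels were spread widely. Of 47 genes of meiotic arrest and release, 40 were detected (85.1%), 24 reached 10 FPKM and 9 reached 100, with a median of 10.5 FPKM. For comparison, 45.1% of the 16440 nuclear protein-coding genes were detected, 18.9% reached 10 FPKM, 2.66% reached 100, and their median was 0.726 FPKM, or 7.32 among the detected ones alone. AURKA, a kinase of the spindle poles, had 1151, 1125 and 1105 FPKM. CKS2 had 625, 610 and 627 FPKM, and UBE2C, the ubiquitin-conjugating enzyme of the anaphase-promoting complex, had 505, 490 and 495. The list thus had its highest members among small regulators and kinases. CCNB1, the main cyclin B, had 353, 351 and 364 FPKM, above CCNB2 at 63.8 and CCNB3 at 19.4.

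Its kinase partner was far lower. CDK1 had 0.577, 0.635 and 0.587 FPKM, from 379, 442 and 404 counts. On the FPKM scale the ratio of CCNB1 to CDK1 lay between 553 and 620. The derived length was 10364 bases for CDK1 and 2166 for CCNB1, so part of this ratio comes from the division by length. By counts, with no such division, CCNB1 had 48534, 51162 and 52419, still far above CDK1. CDK1 overlaps RHOBTB1 on the opposite strand, and reads of these genes cannot be told apart by strand. Further down the same cascade as MOS, MAP2K1 reached 54.1 FPKM, whereas MAPK3 was listed with 14, 0 and 13 counts. Among activators and inhibitors of the anaphase-promoting complex, CDC20 had 80.2 FPKM, FZR1 1.40 and FBXO43 (also known as EMI2, the inhibitor that holds MII arrest) 35.7. MASTL, which restrains the phosphatase that opposes cyclin-dependent kinase, had 78.8, 78.8 and 79.0 FPKM. GPR3 and GPR12, receptors that keep the immature oocyte arrested, were below detection at 0.628 and 0.422 FPKM.

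Spindle, kinetochore and cohesin genes had a higher median than the meiotic control list. Of 50 genes, 46 were detected, 31 reached 10 FPKM and 11 reached 100, with a median of 31.2 FPKM. AURKC, the aurora kinase of meiosis, led with 505, 512 and 511 FPKM, ahead of SYCP3, a protein of the synaptonemal complex of meiotic prophase, with 358, 345 and 346. The checkpoint genes MAD2L1 and BUB1B had 267 and 170.1 FPKM. SMC1B, the meiotic cohesin subunit, had 141 FPKM against 4.93 for SMC1A, a ratio of 28.1 to 29.2 over the libraries. The meiotic kleisin REC8, which holds sister chromatids together until anaphase, was listed with 0, 8 and 0 counts, below the 12 counts that 3 fragments would give, while the general kleisin RAD21 had 9.74 FPKM. The 2 cohesin subunits thus differed in which form was the more abundant.

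The ubiquitin and proteasome list had the highest share of members detected among the lists of nuclear genes apart from the 6 markers: 59 of 62 (95.2%), with 45 at 10 FPKM, 15 at 100 and a median of 35.4 FPKM. It held 4.07% of all FPKM, of which UBB supplied 2.86%. SUMO2, a ubiquitin-like modifier, had 1536, 1558 and 1533 FPKM. UCHL1, a ubiquitin hydrolase of germ cells and neurons, had 534, 525 and 533 FPKM. Proteasome subunits were spread from PSMB1 at 311.8 and PSMA7 at 280.5 FPKM down to the activator subunits PSME1 at 0.598 and PSME2 at 0.451. Outside the list, ENSSSCG00000003303, with GO terms of protein polyubiquitination and female germ cell nucleus, had 2552, 2575 and 2538 FPKM.

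The list of oocyte secreted factors and egg coat genes, which also holds the egg surface genes CD9 and IZUMO1R and the RNA-binding protein ZAR1, was spread widely. Of 12 in the table, 11 were detected, 7 reached 10 FPKM, 5 reached 100 and the median was 62.7 FPKM. OOSP3 and OOSP2, oocyte secreted proteins, had 4330 and 1117 FPKM in the mean, and their ratio lay between 3.82 and 3.93. BMP15 exceeded its partner growth factor GDF9 by a factor of 38.5 to 41.1, with GDF9 at 40.8, 40.2 and 41.9 FPKM. Of the zona pellucida genes, which encode the egg coat, ZP4 had 325, 329 and 327 FPKM and ZP2 320, 322 and 322. These ranges did not overlap, but by counts the order was reversed, with ZP2 at rank 136 and ZP4 at rank 187. ZP3 was lower at 84.5, 86.8 and 82.1 FPKM, and ZP2 exceeded it by 3.71 to 3.92 times. CD9, an egg surface protein required in mouse for fusion with sperm, was listed with 11, 8 and 0 counts.

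Maternal-effect genes, whose products act in the embryo before its own genome, numbered 30 in the table, of which 27 were detected, 17 reached 10 FPKM and 8 reached 100. They held 2.84% of FPKM and 5.43% of counts, of which DNMT1 alone gave 4.39%. DPPA5, an RNA-binding protein of germ and pluripotent cells, had 3561, 3535 and 3537 FPKM. KPNA7, the importin alpha of the oocyte, had 1931, 1905 and 1932 FPKM. Within the subcortical maternal complex, a protein assembly under the egg membrane, OOEP had 693, 691 and 696 FPKM, whereas NLRP5 had 2.61, 2.54 and 2.58 and TLE6 2.27. These members of 1 complex therefore differed widely in mRNA level. POU5F1, a transcription factor of pluripotent cells, had 68.4 FPKM. ZFP57, which protects imprinted methylation, was listed with 4, 0 and 0 counts.

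BTG4 stood far above its partners in tail shortening. The list of BTG proteins, the CCR4-NOT complex and other decay factors had 24 of 26 detected, 8 at 10 FPKM, and a median of 6.28 FPKM. CNOT7, the catalytic deadenylase subunit, was next with 225, 226 and 230 FPKM, and it exceeded the other form CNOT8 by 38.1 to 43.5 times. CNOT6L, a second kind of deadenylase subunit, had 18.4 FPKM, and the scaffold CNOT1 had 2.80. BTG1, BTG2 and BTG3 lay between 1.46 and 4.39 FPKM.

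Genes that store maternal mRNA and control its translation had no member at 1000 FPKM. Of 35 genes, 31 were detected, 11 reached 10 FPKM and 2 reached 100, with a median of 6.48 FPKM. ZAR1L led at 180.1 FPKM, followed by EIF4ENIF1 (also known as 4E-T, a repressor that binds the cap-binding protein) at 102.4 and IGF2BP3 at 73.4. CPEB1, which binds the element that drives cytoplasmic polyadenylation, had 32.4 FPKM. ZAR1, the better known relative of ZAR1L, had 8.13 FPKM. DAZL, a germ cell translation activator, was below detection at 0.501 FPKM, from 37, 57 and 36 counts.

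Histone and chromatin genes had 25 of 35 members detected, 20 at 10 FPKM and 10 at 100, with a median of 20.7 FPKM. H1-8 led, while the linker histones H1-10 and H1-2 were at 0.419 and 0.110 FPKM. H3-3B, a gene of the replication-independent histone H3.3, had 1186, 1193 and 1191 FPKM and exceeded H3-3A by 7.28 to 7.56 times. HMGB1 had 336.0 FPKM and H2AZ1 165.4. Replication-dependent histone mRNAs end in a stem-loop and not in a poly(A) tail, and H2AC20 and H2BC4 were listed at 0. Among DNA methylation genes, DNMT3A had 35.3 FPKM and DNMT3B 11.4, and DNMT1 exceeded DNMT3A by 197 to 205 times. UHRF2 had 744, 753 and 758 FPKM, while UHRF1, the cofactor that guides DNMT1 to hemimethylated DNA, had 4.29.

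In many families 1 member held nearly all of the FPKM. WEE2 exceeded PKMYT1 by 362 to 384 times, and WEE1 was listed with 4, 0 and 0 counts. KPNA7 exceeded KPNA2, the next importin alpha, by 11.5 to 11.9 times. CALM2 had 5722, 5799 and 5807 FPKM, whereas CALM3, which encodes the same calmodulin protein, had 1.04. MCUB, the subunit that dampens the mitochondrial calcium uniporter, had 1721, 1745 and 1735 FPKM against 14.4 for the pore subunit MCU, a ratio of 115 to 127. In each of these the dominant gene was the same in all 3 libraries. The relatives of ID3 had means below 1 FPKM, with ID1 at 0.964 FPKM, ID2 at 0.203 and ID4 at 0.167.

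Forms known from oocytes did not lead in every family. EIF4E1B, the oocyte cap-binding protein, had 4.84 FPKM and EIF4E 7.63. YBX2, the germ cell Y-box protein, had 1.18 FPKM and YBX1 62.0. PABPC1L, the embryonic poly(A)-binding protein, had 18.1 FPKM and PABPC4 40.6, while PABPC1 had 1.38. NPM2, the oocyte nucleoplasmin, had 108 FPKM and NPM1 139. Among the aurora kinases AURKA exceeded the meiotic AURKC by 2.16 to 2.28 times, and AURKB had 39.9 FPKM. TET3, the dioxygenase known from oocytes, led its family at 4.78 FPKM against 0.310 for TET1, and TBPL2 led at 1.55 against 0.606 for TBP. The form known from oocytes or germ cells thus had the highest mean for H1-8, WEE2, KPNA7, BTG4, SMC1B, TET3 and TBPL2, and did not for EIF4E1B, YBX2, PABPC1L, PABPN1L, NPM2, AURKC and REC8.

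**Figure D3:**
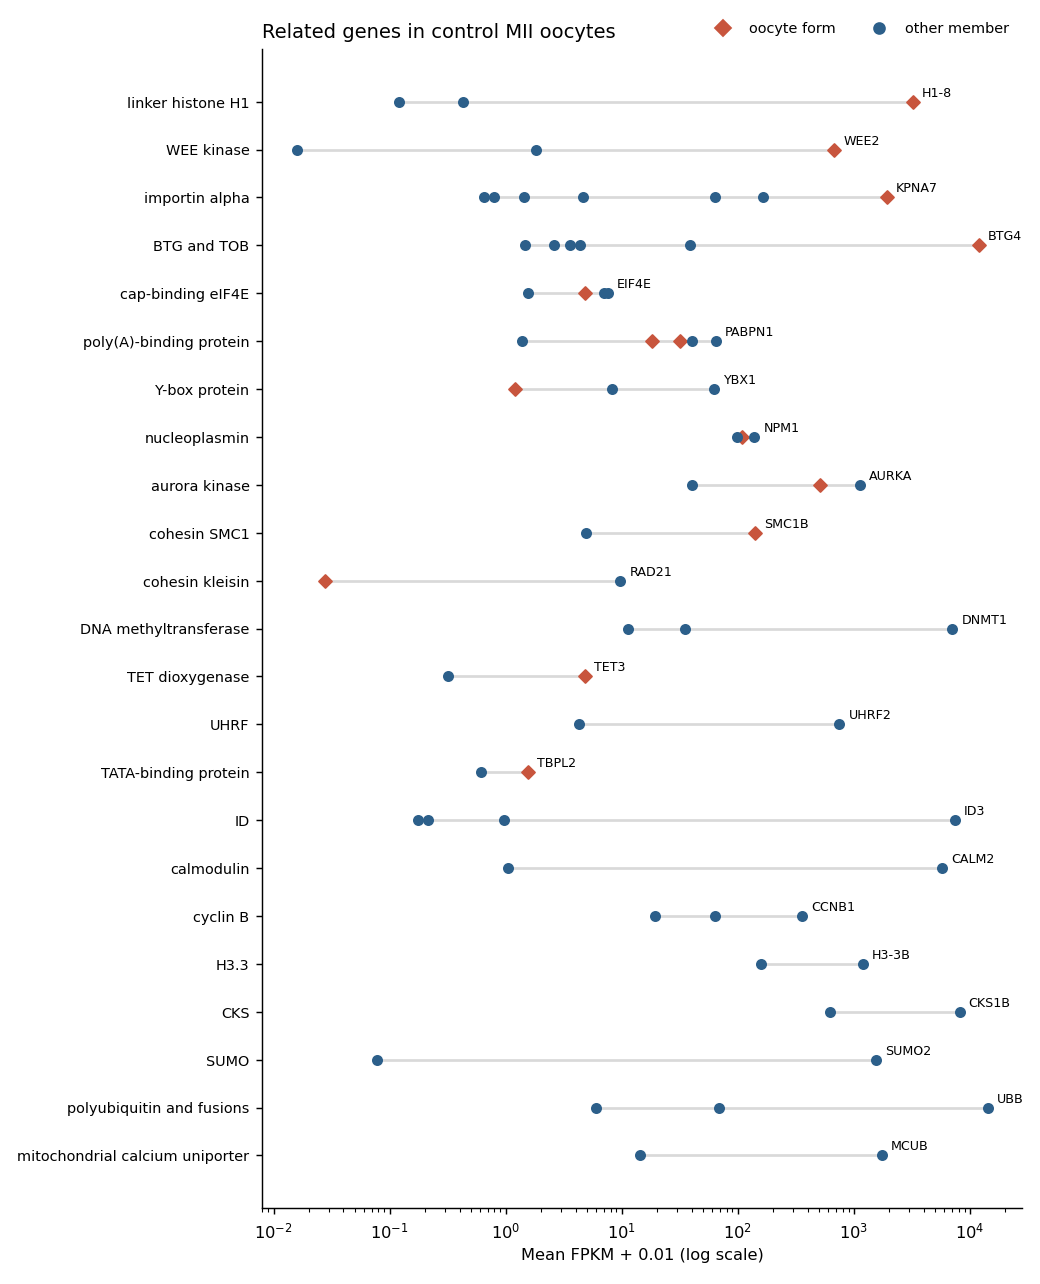
Mean FPKM + 0.01 (log scale) of related genes in the control libraries, 1 family per line, with the member known from oocytes or germ cells as a red diamond, other members as blue circles and the highest member named. H1-8, WEE2, KPNA7 and BTG4 stand far to the right of their relatives, while EIF4E1B, YBX2 and REC8 do not.

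The protein synthesis machinery was present at moderate mRNA level. Of 71 cytosolic ribosomal protein genes, 63 were detected and 32 reached 10 FPKM, with a median of 8.98 FPKM. All of them together held 0.310% of FPKM. RPS24 led with 187.9 FPKM, and RPL35 was lowest at 0.140. Translation factors had 31 of 35 detected and a median of 7.73 FPKM, led by EIF1, which selects the start codon, at 627, 635 and 628 FPKM. EEF1A1, an elongation factor, had 129.6 FPKM and EEF2 14.4. Splicing genes had 49 of 54 detected and a median of 14.8 FPKM. SNRPE, a core protein of spliceosomal RNPs, had 2199, 2143 and 2180 FPKM, 4.03 to 4.21 times the next member, SNRPC.

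Chaperone genes had 49 of 54 detected, 35 at 10 FPKM and a median of 18.4 FPKM. HSPE1, the small mitochondrial chaperonin, had 790 FPKM and DNAJA1 769, whereas HSPD1, the large partner of HSPE1, had 24.9, a ratio of 31.4 to 32.0. HSP90AB1 had 271.7 FPKM, HSPA8 19.98 and HSPA5 10.9. Antioxidant genes had 32 of 45 detected and a median of 4.05 FPKM. FTL, the ferritin light chain that stores iron, had 2548, 2519 and 2536 FPKM, 14.3 to 14.9 times FTH1. PRDX2 had 356.6 FPKM, SOD1 186.9 and GPX4 0.529.

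Energy genes fell apart by pathway. Nuclear genes of the respiratory chain had 64 of 73 detected, 39 at 10 FPKM and a median of 13.7 FPKM, led by NDUFA1 of complex I at 548.7 FPKM and COX8A of complex IV at 378.2. In complex II, SDHB had 271.9 FPKM and SDHA 5.10. The tricarboxylic acid cycle and aspartate list had 25 of 40 detected and a median of 2.40 FPKM, with the glutamine carrier SLC1A5 at 162.2, the aspartate-glutamate carrier SLC25A13 at 87.9 and citrate synthase (CS) at 86.9. Glycolysis and the pentose phosphate pathway had only 10 of 25 detected, and their median of 0.721 FPKM lay just below that of all nuclear protein-coding genes. RPIA, of the pentose phosphate pathway, was their highest member at 201.7 FPKM, and LDHA followed at 22.9. GAPDH had 5.10 FPKM, PKM 0.743 and ENO1 0.627, and PGAM1 had no count.

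Lipid genes had 21 of 39 detected and a median of 1.55 FPKM. ELOVL6, which lengthens fatty acids, had 464.8 FPKM and PLIN2, a coat protein of lipid droplets, 74.7. CPT1A, the usual entry enzyme of mitochondrial fatty acid oxidation, had no count. In the actin cortex list 26 of 36 were detected. TMSB4X, which binds actin monomers, had 446.8 FPKM and ACTG1, a cytoplasmic actin, 95.8, whereas ACTB was listed with 80, 37 and 50 counts, or 0.161 FPKM. Of the 32 transcription factors and ID genes listed, 22 were detected and ID3 alone reached 100 FPKM. FOS, MYC, JUNB and KLF9, genes of rapid transcription in many cells, had no count in any library.

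**Figure D4:**
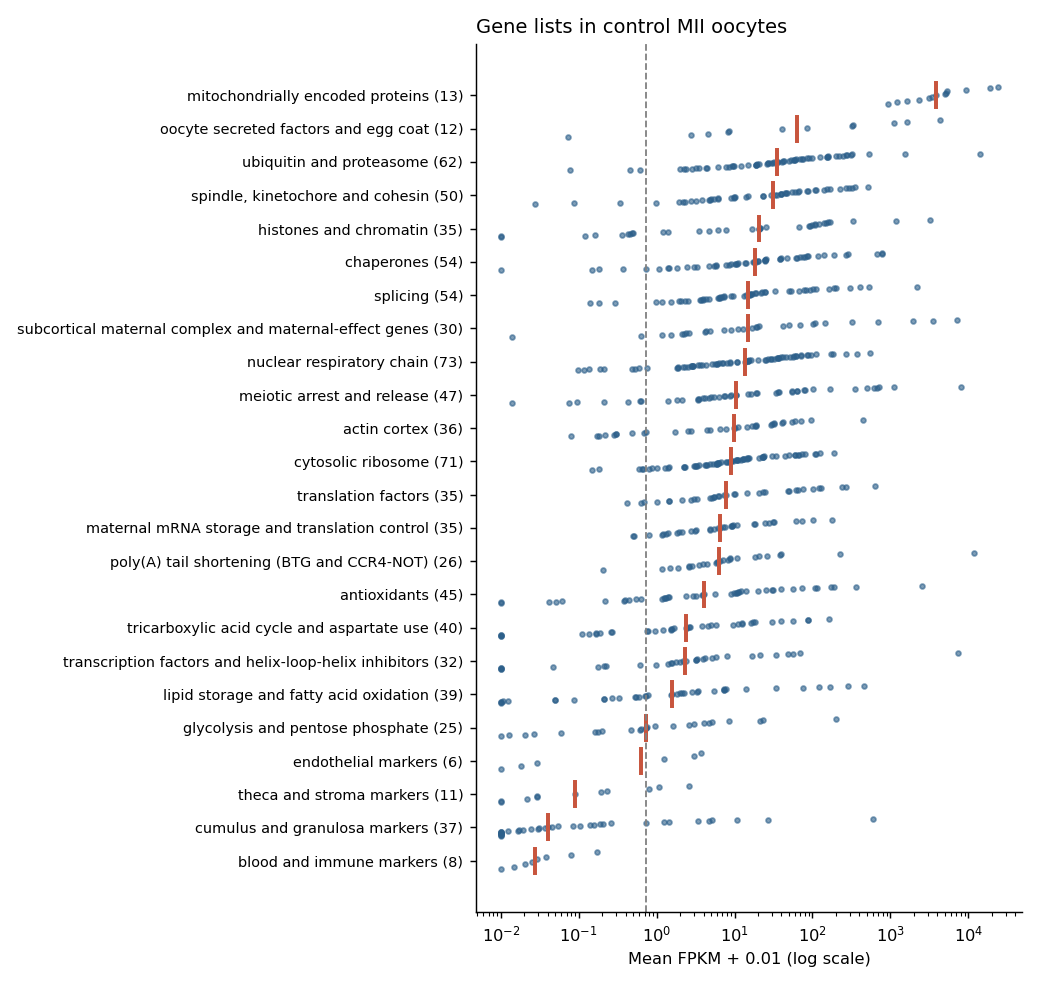
Mean FPKM + 0.01 (log scale) of each gene (blue) in 24 lists for the control libraries, with the number of genes of the list in the table in brackets and the list's median as a red bar. The dashed line marks the median of all nuclear protein-coding genes, 0.726 FPKM, and the markers of surrounding, blood and endothelial cells and the glycolysis list have medians below it.

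Of 25 lists, the marker list included, 20 had a median above that of all nuclear protein-coding genes and 5 had one below. Low values of genes with near-identical copies are uncertain, since the sources used here do not state the rule for reads that match several places. This touches the ribosomal proteins, GAPDH, ACTB, ACTG1, EEF1A1, the tubulins, ferritins, calmodulins, H3-3A, H3-3B, PPIA, HMGB1, TMSB4X, UBB and the SUMO genes. BTG4, CKS1B and AURKA are each overlapped by a gene on the opposite strand, HOATZ, SHC1 and CSTF1, and how reads of such overlaps were counted is not stated. Overlap of this or any kind was recorded for 16 of the 100 most abundant nuclear genes and for 21.6% of all detected nuclear genes.

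Counted by GO term, the 100 most abundant nuclear genes held 8 with the term cell cycle, which 1.55% of detected nuclear genes carry. Cell division was a term of 6 of them (1.35% of detected), and mitochondrial inner membrane also of 6 (2.15% of detected). The term metal ion binding was held by 17, against 12.3% of detected, and among these were ENSSSCG00000000296, DNMT1, FTL and MT1X, a metallothionein. Protein kinase activity was held by 6 (2.86% of detected), namely AURKA, AURKC, MOS, WEE2, MELK and ENSSSCG00000063338. Of the broad terms, nucleus was held by 32 of the 100 against 30.3% of detected, cytoplasm by 27 against 27.2% and membrane by 19 against 23.8%. Nucleoplasm was held by 12 against 20.3% of detected, protein binding by 11 against 15.5% and plasma membrane by 7 against 13.2%. Terms were lacking for 6 of the 100, and 12 of the 100 had no symbol.

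The mitochondrial genome, which encodes 13 proteins of the respiratory chain, 2 ribosomal RNAs and 22 tRNAs, gave 21.98%, 21.87% and 22.05% of the summed FPKM in libraries 1, 2 and 3. By counts it gave 10.1% (Wilson 95% interval 10.10% to 10.13%), 10.0% (10.02% to 10.05%) and 10.1% (10.11% to 10.15%), with 4 counts taken as 1 fragment and counting error only. All 37 genes were detected. The 13 protein genes held 16.8% of FPKM and 9.80% of counts. They made up 13 of the 50 most abundant genes of the table, and a tRNA gene was the fourteenth mitochondrial entry.

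Levels of the mitochondrial mRNAs spanned a 25.7-fold range, although both strands of this genome are transcribed as long precursors that are cut into single RNAs. COX1, a subunit of complex IV, led with 23803, 23390 and 24071 FPKM. ATP6, a subunit of the ATP synthase, followed with 18768, 19226 and 19206. COX3 had 9313, 9243 and 9313 FPKM. ND1, COX2 and ND2 lay between 5017 and 5390.0 FPKM, followed by CYTB at 3882, ND4 at 3454, ND4L at 3092, ND6 at 2326, ATP8 at 1657, ND5 at 1220 and ND3 at 924.7. COX1 exceeded COX2, another subunit of the same complex, by 4.60 to 4.65 times. By complex, the 3 genes of complex IV held 45.3% of the mitochondrial protein FPKM, the 7 genes of complex I 25.4%, the 2 of the ATP synthase 24.6% and CYTB of complex III 4.61%.

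Genes known to share an mRNA did not have the same FPKM in each case. ND4L and ND4 overlap on the same strand and differed by a factor of 1.103 to 1.144. ATP8 and ATP6 also overlap, and ATP6 exceeded ATP8 by 11.5 times in each library. ATP8 has only 204 bases, and how reads in either overlap were counted is not stated. ND6 is the protein gene of the opposite strand, and its level was 191% of that of ND5, which it overlaps. Without strand, RNA of ND6 and RNA that crosses it from the other strand cannot be told apart.

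A similar limit holds for the tRNA gene at rank 3. ENSSSCG00000018076 (MT, 8059 to 8129, minus strand) had 21895, 21466 and 22095 FPKM, which was 91.8% of the level of COX1. It starts 4 bases beyond the last base of COX1, on the other strand, and RNA that reads from COX1 across it cannot be told apart from the tRNA. This gene held 87.0% of the FPKM of the 22 tRNA genes and 4.36% of all FPKM, but only 0.178% of counts because it is short. The next tRNA gene, ENSSSCG00000018079, had 538.7 FPKM, the median was 93.1 and the lowest 15.1. The ribosomal RNA genes were level with each other at 312.4 and 312.0 FPKM, and their ranges over the libraries overlapped.

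**Figure D5:**
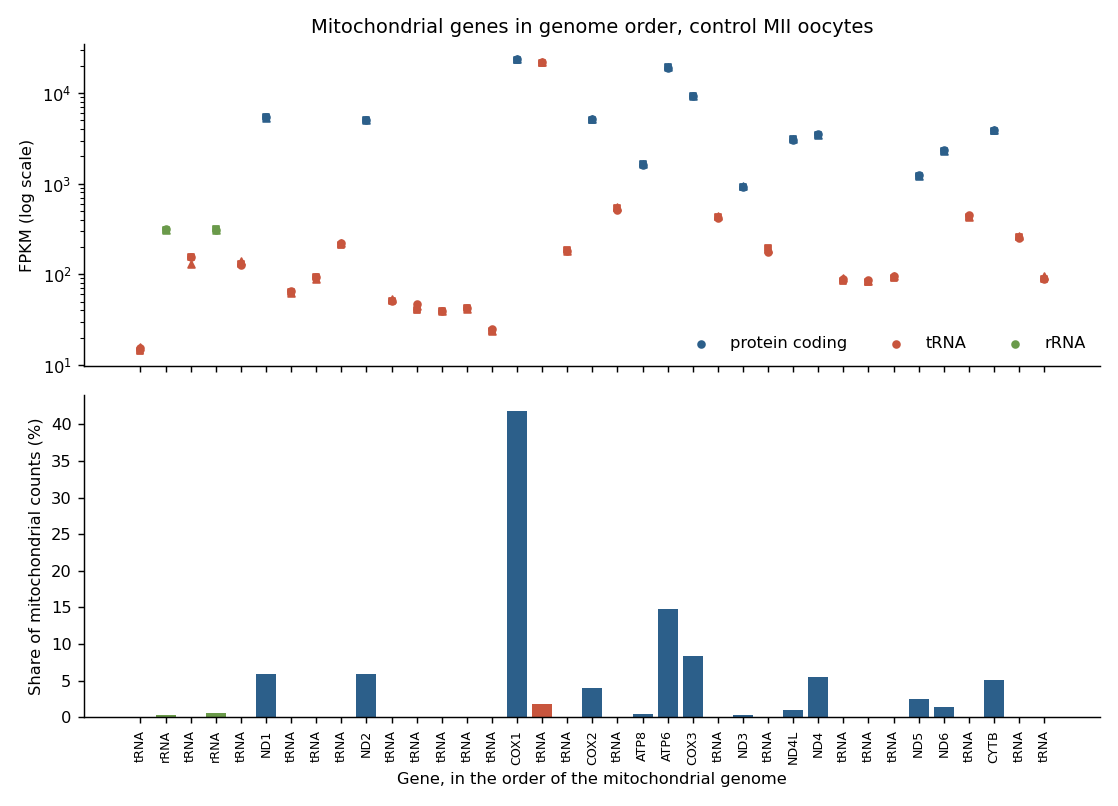
Mitochondrial genes in genome order in the control libraries: FPKM of each library on a log scale (upper panel; circles, squares and triangles for libraries 1, 2 and 3) and share of mitochondrial counts in % (lower panel, bars from the mean). COX1 and the tRNA gene after it are alike in FPKM, while COX1 holds 41.9% of the mitochondrial counts and the tRNA gene 1.77%.

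By biotype, protein-coding genes held 93.0% of FPKM and 97.7% of counts, mitochondrial tRNA 5.01% and 0.204%, long noncoding RNA (lncRNA) 1.70% and 1.91%, and mitochondrial rRNA 0.125% and 0.0910%. Detection differed as much: 7425 of 16453 protein-coding genes (45.1%) were detected, but 276 of 6349 lncRNA genes (4.35%). Detected lncRNA genes had a median of 3.29 FPKM, against 7.34 for detected protein-coding genes. Their derived length was alike, with medians of 3770.0 and 3701 bases.

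A single lncRNA gene accounted for most of the class. ENSSSCG00000050380 (chromosome 1, 52964948 to 52966456, minus strand) had 6091, 6022 and 6033 FPKM and ranked ninth among nuclear genes by FPKM. It held 71.3% of lncRNA FPKM, and without it the class gave 0.494% of all FPKM. The second lncRNA gene, ENSSSCG00000044910, had 188.9 FPKM, and ENSSSCG00000039753 had 116.1; no other lncRNA gene reached 100, and the tenth had 31.8. The leading gene lies 20005 bases from DPPA5, on the same strand, and OOEP lies 19171 bases from DPPA5 on its other side. Between DPPA5 and OOEP is ENSSSCG00000058051 at 17.5 FPKM, so 3 of the 50 most abundant nuclear genes lie in 1 short stretch of chromosome 1. On chromosome 2, OOSP3 lies 83481 bases from ENSSSCG00000061888, a gene with the GO term extracellular region that had 1206 FPKM.

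Few members of the other noncoding classes were detected, as far as a poly(A)-primed library can show. Detected were 17 of 98 pseudogenes, 6 of 121 processed pseudogenes, 5 of 76 miRNA genes, 3 of 191 small nuclear RNA genes and 2 of 145 small nucleolar RNA genes, and none of 13 rRNA genes outside the mitochondrion. The leading pseudogene, ENSSSCG00000050083, had 195.5 FPKM, and the leading processed pseudogene, ENSSSCG00000053166, had 161.4 inside MGAT5 on the opposite strand. Of the miRNA genes, ssc-mir-10390 had 87.2 FPKM and ssc-mir-423 18.3. Both lie within another gene on the same strand, ENSSSCG00000055108 and NSRP1, whose RNA also covers them. Mature miRNAs carry no poly(A) tail and were not measured.

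The most abundant nuclear mRNAs came from short models. The median derived length was 1124 bases for the first 50 nuclear genes by FPKM, 1478 for the next 50, 2168 for the next 400, 2928 for the next 500 and 4046 for the last 2725 detected. FPKM divides by this length, so the trend is in part built into the order. Among nuclear genes, chromosome 5 held 18.6% of FPKM with 5.01% of detected genes, and ENSSSCG00000000296 supplied 86.9% of that.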

How the data were processed

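The control libraries were the samples titled as control 1 to 3. Per the file headers, 1 table of the whole series holds the authors' counts and FPKM values per library for 23507 genes, with coordinates, biotypes and GO terms. The deposited counts were whole numbers and were used as deposited. The deposited FPKM values, scaled by transcript length and library size by the authors, were averaged over the 3 control columns. Tools listed in the submitters' processing notes, with no role stated, are StringTie 2.1.6, HISAT2 2.2.1, cutadapt 1.9, edgeR and DESeq2. The sources used here state neither the genome build nor the counting rule. Another 6 columns of values match no sample and stayed out.

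The deposited table gave the symbol of 13893 genes, a table of gene names that of 116 and the gene description that of 53. The remaining 9445 genes have none and are called by identifier. Derived transcript length is the ratio of counts to FPKM, scaled on the 13 mitochondrial protein genes. The index of dispersion used genes with at least 40 counts over a pair. A level of 3 fragments (12 counts, 0.206 to 0.218 CPM, counts scaled to the library total) was taken as the limit of a zero. PCR copies were not marked by molecular identifiers, so intervals and limits cover counting error only. Whether the libraries came from separate oocyte pools is not stated.

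Named genes were drawn by a rule from these: the 50 highest by mean FPKM, the 10 highest by counts, mitochondrial genes, the 6 markers, the first 4 of each list and its defining members near 0, the first 10 lncRNA genes and the first 5 of each other biotype. Not every gene under the rule is named, and the others stand as counts or ranges. Further list members and relatives were named after their values were seen. The members and lists were chosen with earlier results of these data known. No test between groups was made. Alternatives were shares of counts, nuclear genes alone, other detection limits, a pseudocount of 0.1 in place of 1 for list medians, the median over libraries, other scalings (edgeR 4.0.16, DESeq2 1.42.0), and leaving out each library. Python 3.11.15, pandas 2.3.3 and matplotlib 3.10.9 were used. Some genes of the lists and families are not reported here.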

Additional observations from a re-analysis of the deposited data

How the results depend on the processing

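Leaving out each control library moved the share of the first 10 genes only between 38.42% and 38.5%, the mitochondrial share between 21.93% and 22.02%, the lncRNA share between 1.691% and 1.702%, and the number of detected genes between 7845 and 7859. The number of genes that hold 50% of FPKM was 22 each time, and 49 to 50 of the 50 most abundant genes were shared. Ordered by counts under each of 3 scalings, 35 of those 50 were shared, and ordered by median FPKM all 50 were. Shares of counts moved all 4 values: 19.94% for the first 10 genes, 235 genes for 50%, 10.09% mitochondrial and 1.912% lncRNA. Nuclear genes alone gave 37.03%, 36 genes and 2.175% lncRNA. Genes with a derived length of at least 400 bases, an alternative chosen after seeing the data, gave 30.56%, 35 genes, 19.89% mitochondrial and 2.065% lncRNA. The lncRNA share was 1.683% among genes with at least 12 counts in each library, and 0.4937% without ENSSSCG00000050380, also chosen after seeing the data. Detected genes numbered 11964 at 0.1 FPKM, 4488 at 5 FPKM and 13003 at 12 counts in each library. The index of dispersion was 5.69 among genes with at least 1000 counts over the pair (added later), against 5.209. With a pseudocount of 0.1, 25 of 25 lists kept their side of the median of all nuclear protein-coding genes. No paired analysis was possible because no groups were compared. Depth limits genes under 12 counts per library.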
